A study of Mus musculus with 768 samples.

Results

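Vascular cancer-associated fibroblast (vCAF)-like cells that carried transcripts of S100a4 were compared with vCAF-like cells in which no S100a4 read was found, within each of 2 mammary tumors. Of 768 wells, 1 sorted cell each, 717 held at least 10000 endogenous reads and at least 1000 genes with a read. A cell was called vCAF-like where the mean log2(RPKM + 1) of Rgs5, Higd1b, Kcnj8, Rgs4, Abcc9 and Gja4 (the vascular score V) was at least 4 and exceeded the same mean of Dcn, Lum, Mfap5, Olfml3, Smoc2 and Serpinf1 (the matrix score M). This gave 496 vCAF-like cells, of which 165 had 5 or more S100a4 reads and are called S100a4-positive, 295 had 0 reads and are called S100a4-negative, and 36 had 1 to 4 reads and entered neither class. In tumor 1 there were 90 positive and 151 negative cells, and in tumor 2 there were 75 and 144. Both classes were defined from the measured values, so the levels of S100a4 and of the 12 score genes are given as a description.

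The cells came from late carcinomas of 14-week-old mice of the strain FVB/N-Tg(MMTVPyVT)634Mul/J in which the mouse mammary tumor virus promoter drives the polyoma middle T oncogene in the mammary epithelium. Cells had been sorted as EpCAM-, CD45-, CD31- and NG2-negative, which leaves mesenchymal cells without an epithelial, immune, endothelial or NG2-bearing pericyte surface. Each tumor filled 1 plate of 384 wells, so that tumor and plate cannot be told apart, and the tumor is the replicate (n = 2) while cells are not.

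S100A4, also called fibroblast-specific protein 1 (FSP-1) or metastasin, is a small EF-hand protein of the S100 family. On binding calcium it exposes a surface that docks to partners such as the heavy chain of non-muscle myosin IIA and annexin A2, and it is known for its link to cell motility and for its long use as a marker of fibroblasts. Pericytes are the contractile cells wrapped around capillaries, and their relatives with most smooth muscle actin and myosin lie on larger vessels. Whether S100a4 marks a separate state among perivascular CAFs is the question that the comparison addresses.

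S100a4 lies on the plus strand of chromosome 3 (GRCm38, the assembly of mm10), from 90603770 to 90606045, among other S100 genes. S100a3 ends at 90602706 on its upstream side and S100a6 begins at 90612894 downstream. The 300 bases around its start site (RefSeq, GRCm38.p6, chr3:90603520-90603819, plus strand), shown because this gene divides the classes, hold 1 TATAAA, in capitals, that begins at position -31 from the start. TATAAA or its complement TTTATA was found in 8.30% of the 8397 promoters of tested genes in the same table.
S100a4 promoter: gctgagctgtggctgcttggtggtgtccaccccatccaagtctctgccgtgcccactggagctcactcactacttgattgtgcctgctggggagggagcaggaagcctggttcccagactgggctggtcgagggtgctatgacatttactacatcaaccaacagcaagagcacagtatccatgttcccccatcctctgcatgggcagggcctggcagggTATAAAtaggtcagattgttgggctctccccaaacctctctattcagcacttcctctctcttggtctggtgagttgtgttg

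S100a4 was present in part of the vCAF-like cells and at very different levels among them. S100a4-positive cells made up 34.5% of the vCAF-like cells of tumor 1 and 31.9% in tumor 2, with exact 95% binomial intervals of 28.7 to 40.6% and 26.0 to 38.3%. The positive cells carried 5 to 1050 S100a4 reads in tumor 1, with a median of 32, and 6 to 1845 in tumor 2, with a median of 59. On the log2(RPKM + 1) scale their S100a4 level averaged 8.44 ± 1.84 (SD over 90 cells) in tumor 1 and 9.28 ± 1.74 (SD over 75 cells) in tumor 2. The rule itself sets the gap between the classes. Just inside it, 10 positive cells of tumor 1 and 5 of tumor 2 held 5 to 9 reads. At the other side of the threshold, 27 of the 36 cells left out had exactly 1 read, 13 in tumor 1 and 14 in tumor 2.

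**Figure D1:**
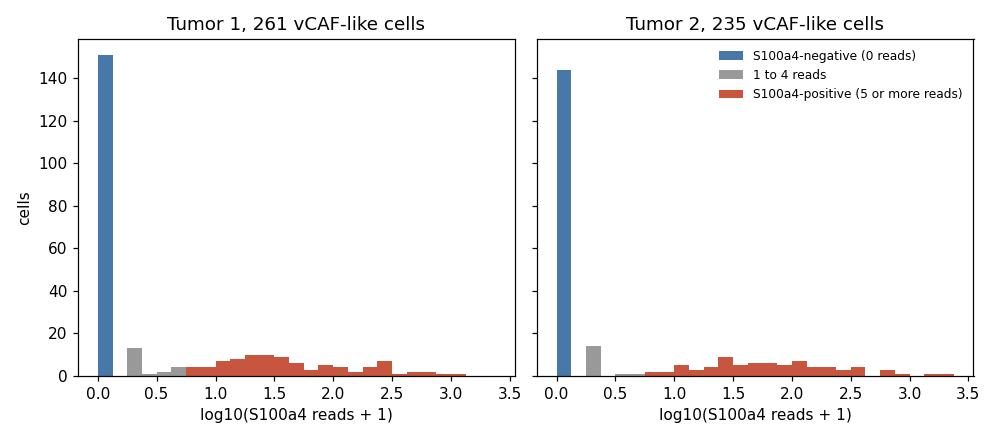
Number of vCAF-like cells (y axis) by their S100a4 reads as log10(reads + 1) (x axis), 1 panel per tumor, with colors for the 3 classes. Most cells sit at 0, and the positive cells spread from 5 to 1050 reads in tumor 1 and from 6 to 1845 in tumor 2.

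Thinning the reads moved the share with S100a4 by less than its interval. At least 1 S100a4 read was found in 42.1% of the vCAF-like cells of tumor 1 (36.1 to 48.4%) and in 38.7% in tumor 2 (32.5 to 45.3%). After thinning each cell to 50000 reads these shares were 38.2% and 34.8%, with 7 and 11 shallower cells left out. Cells in which M exceeded V were taken with no minimum on M, so they need not all be matrix CAFs. They carried 5 or more S100a4 reads in 45 of 105 cells (42.9%) of tumor 1 and in 65 of 107 (60.7%) of tumor 2. The interval of this share was 33.2 to 52.9% in tumor 1, which overlaps that of the S100a4-positive share of vCAF-like cells. In tumor 2 it was 50.8 to 70.0%, which does not.

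Markers that the rule did not use are given as a description of the vCAF-like cells. Their lists were chosen with earlier results of these data known, and nearly all of the other cells had M over V. The comparison is therefore no independent check of the name. Of 25 further pericyte genes, 23 were higher on average in vCAF-like cells than in the other cells in both tumors, and of 18 fibroblast genes none were. Notch3, a receptor that mural cells need, had a read in 98.5 and 97.9% of the vCAF-like cells of tumors 1 and 2, and Pdgfra, a receptor of fibroblasts, in 14.9 and 8.51%. Pecam1 and Cdh5 of endothelium had reads in 0 of 261 and 0 of 235 cells, which allows shares of cells with a read of up to 1.15 and 1.28% and does not limit how many cells express these genes below detection. Cspg4, which encodes NG2, had reads in 84.7 and 90.6% of these cells although they were sorted as NG2-negative at the surface. Epcam had reads in 8 and 20 cells.

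The 2 classes differed in depth and in other ways that bear on every comparison between them. Median endogenous reads per cell were 242652 and 203420 in the positive classes of tumors 1 and 2 and 189319 and 194752 in the negative classes. The median number of genes with a read was 4433.5 and 4707 against 3958 and 4112.5. ERCC spike-in RNA, added to the lysates, took a median of 12.3 and 9.85% of reads in positive cells and 15.7 and 13.2% in negative cells, so that the endogenous reads per ERCC read were 7.14 and 9.16 against 5.36 and 6.55. The positive cells thus gave more RNA relative to the spike-in in both tumors. Cells in cycle, those with 5 or more reads in at least 5 of 20 cell cycle genes, were 17 of 90 (18.9%) and 16 of 75 (21.3%) positive cells against 17 of 151 (11.3%) and 15 of 144 (10.4%) negative cells. An M score of 2 or more was reached by 30 of 90 and 18 of 75 positive cells and by 32 of 151 and 25 of 144 negative cells. The part that depth, RNA content, cycling and M score play in the differences below was examined only through the alternatives given with them, and otherwise was not tested.

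**Figure D2:**
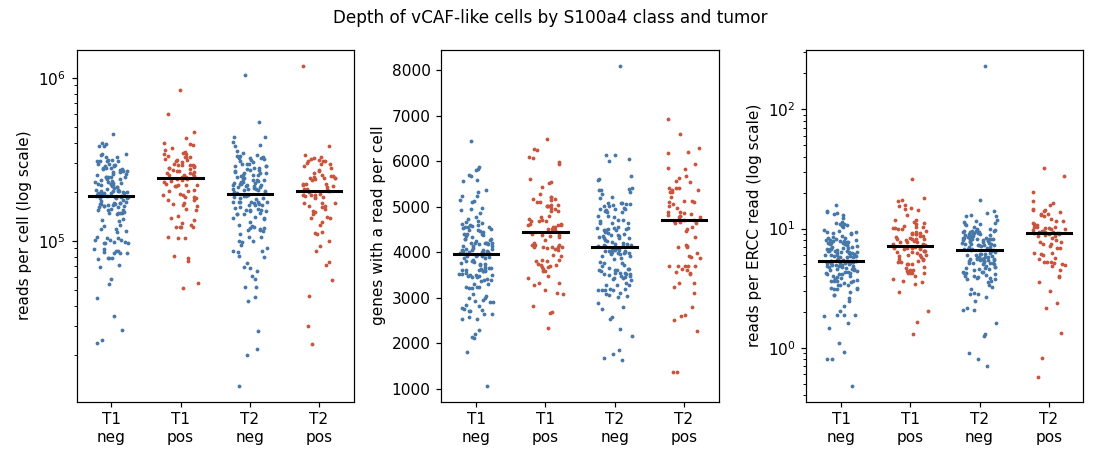
Endogenous reads per cell (left, log scale), genes with a read per cell (middle) and endogenous reads per ERCC read (right, log scale) of S100a4-negative and S100a4-positive vCAF-like cells of tumors 1 and 2 (T1, T2). Points are cells and bars are medians, which are higher in the positive class in all 3 panels and both tumors.

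For the comparison of genes, the reads of each class were summed within each tumor into 4 libraries of 16089384 to 29205851 reads, and levels are given as CPM, the reads of a gene scaled to a common total of the summed libraries after TMM normalization. Values between genes of different length are not set against each other. Of 11201 genes outside the rule, 10 were higher (0.0893%) and 3 lower (0.0268%) in S100a4-positive cells by the quasi-likelihood test of edgeR, in which the tumor was a block and Benjamini-Hochberg adjusted p-values were read at 0.05. At an unadjusted p under 0.05 there were 534 higher (4.77%) and 407 lower (3.63%). Higher values in both tumors were found for 26.1% of genes, and lower values in both for 27.7%. The counts at the unadjusted threshold serve as the background for the gene lists. Without the tumor as a block, 0 genes were called in either direction, with 371 and 266 at an unadjusted p under 0.05, and with DESeq2 the counts were 140 higher and 50 lower. Named below are the 12 genes of smallest p in each direction among those that differed the same way in both tumors.

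**Figure D3:**
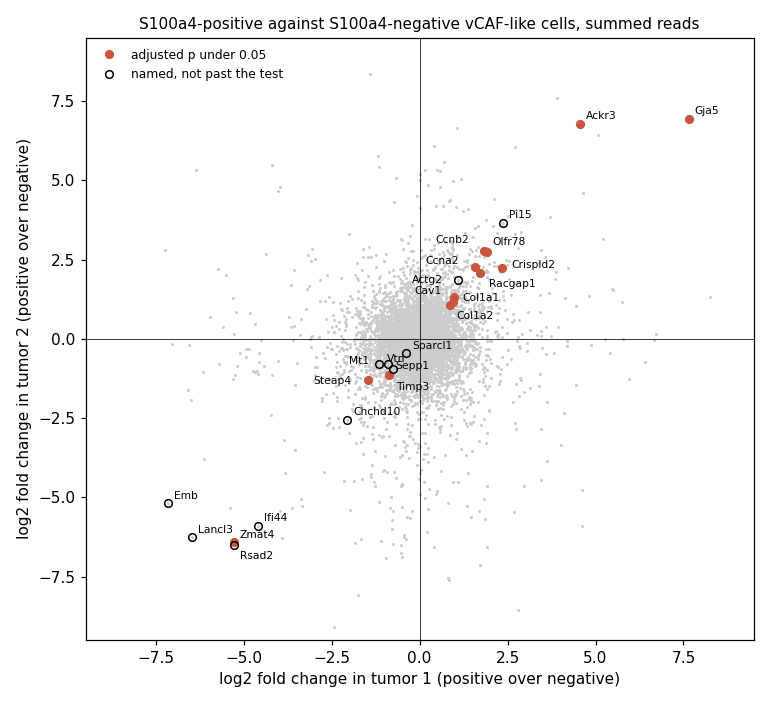
Log2 fold change, S100a4-positive over S100a4-negative, of the 11201 tested genes in tumor 1 (x axis) and tumor 2 (y axis). Filled points passed an adjusted p of 0.05, open points are the other named genes, and the called genes lie in the upper right (10) and the lower left (3).

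Genes of the collagenous matrix were among those that were higher. Col1a1 and Col1a2 encode the 2 chains of type I collagen, the main fibrillar collagen of stroma. Col1a1 was at 1624 and 1440 CPM in the negative classes of tumors 1 and 2 and at 3144 and 3218 in the positive classes. Its difference was 1.06 ± 0.10 on the log2 scale (SE, adjusted p = 0.0139), and the classes did not overlap. Col1a2 was at 2212 and 1877 against 4049 and 3937 CPM, a log2 difference of 0.97 ± 0.09 (adjusted p = 0.0139). Almost every cell of both classes had Col1a1 reads, 98.6 to 98.9% in the 4 libraries, so the difference lay in the amount per cell. No cell gave more than 8.76% of a library's Col1a1 reads, and both genes were called in 11 of 17 alternatives at the adjusted threshold of 0.05, a count that leaves out the stricter threshold of 0.001, at which no gene was called.

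The wider list of interstitial collagens held 12 genes, of which 10 had an unadjusted p under 0.05 and a higher level, against 4.77% of all genes, and none a lower one. Its median log2 difference was 0.37, beside -0.01 over all genes tested. Col12a1, a collagen that decorates fibrils, differed by 0.64 (adjusted p = 0.112), Col8a1, a short-chain collagen of vessel walls, by 0.89 (adjusted p = 0.170), Fn1, fibronectin, by 0.51 (adjusted p = 0.179) and Col3a1 by 0.33 (adjusted p = 0.232). Col6a2 at 0.19 and Col5a3 at -0.25 did not reach the unadjusted threshold. The median was 0.39 without cycling cells, 0.39 in cells matched for depth and 0.25 in cells with an M below 2.

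Basement membrane genes had a median log2 difference near that of all genes tested. These genes build the sheet that pericytes share with endothelium. Of 12 tested, 2 were higher (4.77% of all genes) and 1 lower (3.63% of all genes) at an unadjusted p under 0.05, with a median of -0.02. The contrast with the interstitial collagens was not tested. Col4a1, the main chain of type IV collagen, was at 6628 and 7347 CPM in the negative and 6351 and 7523 in the positive classes, a difference of -0.01 ± 0.08. Sparc, a matrix glycoprotein, differed by 0.32 (adjusted p = 0.229), Lama5 by 1.86 (adjusted p = 0.258) and Lama2 by -0.33 (adjusted p = 0.590).

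None of the contractile genes passed the adjusted threshold. Of 15 tested, 10 were higher in both tumors (26.1% of all genes), and the median log2 difference was 0.59. At an unadjusted p under 0.05, 8 had a higher level (4.77% of all genes) and none a lower one. Acta2, the alpha smooth muscle actin used as a CAF marker, was at 4234 and 3195 CPM in the negative classes and at 6098 and 5939 in the positive classes, a difference of 0.71 ± 0.10 (adjusted p = 0.0621). Actg2, the gamma smooth muscle actin of visceral muscle, was at 189 and 128 against 402 and 461, a difference of 1.47 ± 0.19 (adjusted p = 0.0512). The positive classes lay above both negative ones for both actins. Myh11, the smooth muscle myosin heavy chain, differed by 0.82 (adjusted p = 0.100), Tagln, an actin-binding protein of smooth muscle, by 0.86 (adjusted p = 0.217), Tpm1, a tropomyosin, by 0.59 (adjusted p = 0.160) and Mylk, the myosin light chain kinase, by 0.50 (adjusted p = 0.186).

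Among contractile genes, Actg2 was also found in a larger share of the positive cells. Actg2 reads were found in 31.8 and 25.7% of negative cells and in 45.6 and 56.0% of positive cells, and after thinning to 50000 reads in 26.0 and 21.7% against 43.3 and 50.0%. Acta2 was present in nearly all cells, 97.4 and 93.8% of the negative and 100% and 98.7% of the positive. Des, the intermediate filament desmin and a classic pericyte marker, differed by -0.03 ± 0.12. Without cycling cells, 9 of the 15 had an unadjusted p under 0.05, and Acta2 (0.71, adjusted p = 0.0420) and Actg2 (1.23, adjusted p = 0.0277) passed the threshold. In depth-matched cells, Acta2 differed by 0.67 (adjusted p = 0.201).

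Crispld2, a secreted protein of the cysteine-rich CAP family (chromosome 8, 119992438 to 120052794), was at 36.0 and 34.2 CPM in the negative classes and at 182 and 162 in the positive, a log2 difference of 2.29 ± 0.19 (adjusted p = 0.0101). Its reads were in 27.8 and 21.5% of negative cells and in 42.2 and 40.0% of positive cells, or 19.2 and 15.2% against 36.7 and 34.7% after thinning. One cell gave 44.0% of its reads in the positive library of tumor 1, and without the top cell of each library the levels were 28.8 and 25.3 against 102 and 116. Pi15, another member of the CAP family, was at 5.00 and 8.05 against 26.1 and 103 CPM (adjusted p = 0.0621) and rested on 17 negative and 31 positive cells. Crispld2 was called in 12 of 17 alternatives.

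Olfr78 was found in more of the S100a4-positive cells. It encodes an olfactory receptor that is also expressed in vascular smooth muscle and in oxygen-sensing cells of the carotid body (chromosome 7, 102740721 to 102759471). It was at 65.9 and 46.6 CPM in the negative and at 247 and 314 in the positive classes, a log2 difference of 2.33 ± 0.23 (adjusted p = 0.0139). Reads were present in 15.9 and 15.3% of negative cells and in 34.4 and 38.7% of positive cells. No cell gave more than 18.4% of a library's Olfr78 reads, and the gene was called in 10 of 17 alternatives.

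Cav1, which encodes the coat protein of caveolae, was at 484 and 196 against 945 and 490 CPM. Its log2 difference was 1.15 ± 0.13 (adjusted p = 0.0305), and the positive class was higher within each tumor, but the negative class of tumor 1 (484) and the positive class of tumor 2 (490) lay close together. Its reads were in 62.3 and 41.7% of negative and in 81.1 and 53.3% of positive cells, and it was called in 9 of 17 alternatives.

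A pair of called genes rested on few cells. Ackr3, an atypical receptor that takes up the chemokine CXCL12, had reads in 12 negative and 27 positive cells, with levels of 5.95 and 0.41 against 142 and 53.7 CPM (adjusted p = 0.0185). Its top cell gave 56.5 and 44.3% of the reads of the positive libraries, and without the top cell of each library the levels were 1.97 and 0.20 against 61.5 and 29.9. Gja5, connexin 40 of arterial gap junctions, had 1 read in 1 negative cell and 584 reads in 12 positive cells, 6 in each tumor (adjusted p = 0.0354). The ratio of its summed reads was 918 after scaling, with a counting interval of 164 to 36313. Gja5 passed the filter on mean RPKM only through the positive class and could not be tested with an M below 2 or a V of at least 6. Ackr3 was called in 10 of 17 alternatives and Gja5 in 8 of 15.

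The share of cycling cells was 18.9% (11.4 to 28.5%) and 21.3% (12.7 to 32.3%) in the S100a4-positive and 11.3% (6.70 to 17.4%) and 10.4% (5.95 to 16.6%) in the negative classes of tumors 1 and 2, with exact binomial intervals that overlapped in both tumors. Of 20 cell cycle genes tested, 13 had an unadjusted p under 0.05 and a higher level (4.77% of all genes) and none a lower one. Of the 20, 2 were called higher (0.0893% of all genes), and the median log2 difference was 1.22. Ccna2, cyclin A2 of S phase and entry into mitosis, was at 74.1 and 68.0 against 219 and 325 CPM (1.91 ± 0.20, adjusted p = 0.0189). Ccnb2, a mitotic cyclin B, was at 26.7 and 20.5 against 95.8 and 141 (2.31 ± 0.29, adjusted p = 0.0446). Racgap1, a regulator of the small GTPases that drive cytokinesis, was outside the list and was at 26.2 and 28.0 against 86.2 and 118 (1.90 ± 0.25, adjusted p = 0.0497). In tumor 2, the top cell gave 37.5 and 39.7% of the Ccna2 reads of the negative and positive libraries. For Ccnb2 these shares were 48.8 and 41.5%, and for Racgap1 28.4 and 57.3%. Without the top cells, the levels in tumor 2 were 42.5 against 196 for Ccna2 and 10.5 against 82.2 for Ccnb2. Racgap1 in positive cells of tumor 2 fell from 118 to 50.4 CPM, above the 28.0 of all negative cells. In tumor 1 no cell gave more than 23.7% of a library's reads of these genes. Mki67, the proliferation antigen, differed by 1.23 (adjusted p = 0.0727). The share of cells moved with the level for Ccna2, which had reads in 17.2 and 13.2% of negative and 27.8 and 26.7% of positive cells.

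Size and certainty of the cell cycle difference varied between the tumors and with the cells taken. The list's median was 0.54 in tumor 1 and 1.73 in tumor 2. When cycling cells of both classes were left out, 11 of the 20 genes could be tested, 0 had an unadjusted p under 0.05, and the median was 0.51. Those cells were picked by reads in the same 20 genes. A loss of list reads was thus built into the choice and decides nothing on the cell cycle difference. Of the 10 higher genes, 7 were then still called, and Ccna2, Ccnb2 and Racgap1 were not. Their log2 differences without cycling cells were 2.64 ± 1.43, 3.60 ± 2.54 and 1.32 ± 0.93 (SE), so that for Ccna2 and Ccnb2 the value was larger and its error much larger than with all cells. Over all alternatives Ccna2 and Ccnb2 were called in 7 of 17 each and Racgap1 in 6 of 17. In depth-matched cells, 4 genes had an unadjusted p under 0.05 and the median was 0.75.

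Promoters of cell cycle genes often carry the cell cycle genes homology region (CHR), a short element through which many mitotic genes are repressed in resting cells. TTTGAA or its complement TTCAAA was found in 9 of the 16 list promoters in the RefSeq table (56.2%), and in 13.5% of the 8397 promoters of tested genes. A pair of them is printed, with these letters in capitals, because Ccnb2 was called and Cdk1 encodes the kinase it binds, for Ccnb2 at chr9:70421505-70421804 and for Cdk1 at chr10:69352863-69353162 (GRCm38.p6, both minus strand, 300 bases each). A match is a description of the letters only.
Ccnb2 promoter: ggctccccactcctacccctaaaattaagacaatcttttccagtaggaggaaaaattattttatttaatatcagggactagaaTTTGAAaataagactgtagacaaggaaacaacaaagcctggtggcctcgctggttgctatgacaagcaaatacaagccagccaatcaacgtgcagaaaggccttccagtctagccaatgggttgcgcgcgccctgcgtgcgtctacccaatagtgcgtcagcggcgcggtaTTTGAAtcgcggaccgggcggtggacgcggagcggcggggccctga
Cdk1 promoter: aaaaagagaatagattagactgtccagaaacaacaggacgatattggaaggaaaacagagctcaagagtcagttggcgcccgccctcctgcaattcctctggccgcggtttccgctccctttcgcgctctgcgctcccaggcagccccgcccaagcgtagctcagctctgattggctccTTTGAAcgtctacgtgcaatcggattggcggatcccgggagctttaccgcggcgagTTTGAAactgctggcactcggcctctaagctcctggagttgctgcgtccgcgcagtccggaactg

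Cdk1 itself was at 122 and 83.2 CPM in the negative and at 164 and 229 in the positive classes, a log2 difference of 0.94 ± 0.25 (adjusted p = 0.300). Ccnb2, by contrast, passed the test as given above.

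None of the other S100 genes passed the adjusted threshold, and 3 with reads in many cells were higher in both tumors. S100a10, the partner of annexin A2 in a membrane complex, was at 65.3 and 33.8 CPM in the negative and at 143 and 116 in the positive classes, a log2 difference of 1.45 ± 0.23 (adjusted p = 0.0866). It had reads in 45.0 and 33.3% of negative cells and in 68.9 and 72.0% of positive cells, or 43.2 and 30.4% against 65.6 and 61.1% after thinning. S100a6, calcyclin, which lies downstream of S100a4, was at 1068 and 1102 against 1562 and 1644 (0.56 ± 0.10, adjusted p = 0.114) and was read in 99.3 to 100% of cells. S100a11 differed by 0.60 ± 0.19 (adjusted p = 0.412). The classes did not overlap for these 3 genes.

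Of 9 S100 genes tested out of 16 listed, 4 had an unadjusted p under 0.05 and a higher level (4.77% of all genes). A lower level at that threshold was found for 1 (3.63% of all genes), and the median was 0.56. The median was 0.34 in tumor 1 alone, 0.35 with an M below 2, 0.37 in cells with at least 100000 reads and 0.31 with positive cells from 1 read. S100a3, which lies directly upstream of S100a4, was the fourth, with reads in 1 negative and 5 positive cells. The lower one was S100a8, a neutrophil alarmin, with 44 reads in 3 negative cells of tumor 2 and 0 elsewhere. S100a8 thus passed the filter on mean RPKM only through the negative class. Without cycling cells, 7 S100 genes could be tested, of which 3 were higher and 0 lower at the unadjusted threshold. S100a13 at 0.22 and S100a1 at 0.18 stayed above the unadjusted threshold. The mapping of reads to near-identical genes, to overlapping genes and to strand is not given in the sources used here, and Smart-seq2 does not mark strand, so reads of overlapping genes cannot be told apart.

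Of 8 known binding partners of S100A4 tested, 2 had an unadjusted p under 0.05, both higher (4.77% of all genes), and the median was -0.03. The median depended on the cells taken and was 0.44 in depth-matched cells, where 3 were higher and 0 lower at that threshold, and 0.29 with an M below 2. Anxa2, annexin A2, which binds membrane phospholipid and S100 proteins, was at 747 and 770 CPM in the negative and at 1158 and 1094 in the positive classes (0.57 ± 0.11, adjusted p = 0.139). Mdm2, the ubiquitin ligase of p53, differed by 0.53 (adjusted p = 0.530), and Myh9, the heavy chain of non-muscle myosin IIA, by 0.01 ± 0.12. Of 7 other annexins tested, Anxa1, Anxa3 and Anxa4 were higher at the unadjusted threshold, with differences of 0.34, 0.50 and 0.44.

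**Figure D4:**
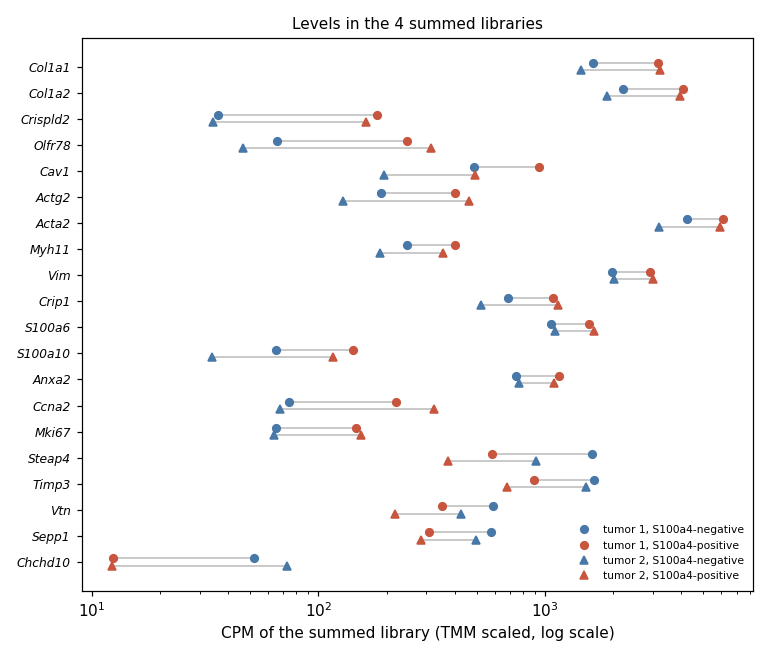
CPM of the summed library (x axis, log scale, TMM scaled) of 20 genes in the 4 libraries, circles for tumor 1 and triangles for tumor 2, blue for S100a4-negative and red for S100a4-positive cells, with a line joining the classes of a tumor. The 15 genes from Col1a1 to Mki67 are higher and the 5 from Steap4 to Chchd10 lower in the positive class of both tumors.

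Genes of the cytoskeleton and of motility leaned the same way. Of 25 tested, 20 were higher in both tumors (26.1% of all genes), and the median was 0.24, with 0.13 in tumor 1 and 0.29 in tumor 2. At an unadjusted p under 0.05, 9 had a higher level (4.77% of all genes) and none a lower one. Vim, vimentin, the intermediate filament of mesenchyme, was at 1970 and 2017 CPM in the negative and at 2894 and 2999 in the positive classes (0.56 ± 0.09, adjusted p = 0.0820). Crip1, a small LIM protein, was at 688 and 523 against 1084 and 1139 (0.89 ± 0.14, adjusted p = 0.0727). Lgals1, galectin 1, differed by 0.48 and Lmna, lamin A, by 0.54. The EMT transcription factors, which drive loss of epithelial character, had 0 of 8 genes past the unadjusted threshold and a median of 0.01, with Snai1 at 0.00, Twist1 at -0.01 and Zeb1 at -0.20.

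Within a class the cells spread widely, and single cells of the 2 classes overlapped. Vim averaged 9.15 ± 1.65 and 8.95 ± 2.17 log2(RPKM + 1) in the negative cells of tumors 1 and 2 and 10.0 ± 1.06 and 10.1 ± 1.13 in the positive cells (SD over cells). S100a6 averaged 9.84 ± 1.40 and 9.89 ± 1.39 against 10.6 ± 0.86 and 10.8 ± 0.86. For both genes the mean was higher and the SD smaller in the positive cells. For Col1a1, at 7.25 ± 2.04 and 7.18 ± 1.99 against 7.94 ± 2.40 and 8.08 ± 2.13, the mean was higher and the SD larger. Acta2 averaged 8.74 ± 2.98 and 7.51 ± 3.58 against 9.73 ± 2.60 and 9.55 ± 2.74, and Steap4, which leads the lower genes, 6.75 ± 3.32 and 5.74 ± 3.47 against 5.17 ± 3.13 and 3.70 ± 3.35.

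The called genes that were lower numbered 3. Steap4, a metalloreductase of the plasma membrane (chromosome 5, 7960472 to 7982213), was at 1617 and 911 CPM in the negative and at 583 and 372 in the positive classes, a log2 difference of -1.38 ± 0.11 (adjusted p = 0.0101). It was read in 94.0 and 86.8% of negative and in 95.6 and 77.3% of positive cells, so that in tumor 1 the amount and not the share of cells was lower. Timp3, a matrix-bound inhibitor of metalloproteinases, was at 1646 and 1512 against 891 and 683 (-1.02 ± 0.11, adjusted p = 0.0211). Steap4 was called in 14 of 17 alternatives and Timp3 in 9 of 17. The other called gene, Zmat4, a zinc finger protein, had reads in 8 negative and 4 positive cells, and its top cell gave 78.5 and 81.1% of the reads of the negative libraries. Zmat4 passed the filter on mean RPKM only through the negative class, and it was called in 10 of 17 alternatives.

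The other named genes that were lower did not pass the adjusted threshold. Vtn, vitronectin, a plasma and matrix protein made by pericytes, was at 591 and 425 CPM in the negative and at 351 and 218 in the positive classes (-0.86 ± 0.13, adjusted p = 0.0727). Sepp1, the selenium carrier selenoprotein P, was at 579 and 496 against 308 and 284 (-0.86 ± 0.12, adjusted p = 0.0621). Chchd10, a protein of the mitochondrial intermembrane space, was at 52.2 and 73.0 against 12.5 and 12.3 (-2.32 ± 0.32, adjusted p = 0.0621). Its share of cells did not differ in the same way, with 45.7 and 50.0% of negative and 52.2 and 45.3% of positive cells. Mt1, a metallothionein, differed by -0.97 and Sparcl1, a matrix relative of Sparc, by -0.41 (adjusted p = 0.117 for each).

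A further 4 of the lower genes rested on 10 cells or fewer. Rsad2 and Ifi44 are induced by interferon and had reads in 6 and 8 negative cells and in 1 and 2 positive cells. Lancl3 had reads in 7 negative cells and Emb, embigin, in 6, and both were at 0 in the positive libraries, which makes them at least 84.4-fold and at least 91.4-fold lower against a floor of 3 counts over the class. Like Rsad2, Ifi44 and Zmat4, both genes passed the filter on mean RPKM only through the negative class, Lancl3 could not be tested in depth-matched cells, and the bounds rest on single cells, since 1 cell gave 52.6 and 67.0% of the Lancl3 reads and 76.5 and 89.7% of the Emb reads of the negative libraries. Without those cells Emb was at 2.76 and 0.30 CPM in place of 11.7 and 2.94. Emb had reads in cells with 1 to 4 S100a4 reads, and its difference was 0.26 once these were counted as positive.

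Of 25 pericyte genes outside the rule, 3 were higher (4.77% of all genes) and 3 lower (3.63% of all genes) at an unadjusted p under 0.05. Their median was -0.10 (-0.09 in tumor 1 and -0.16 in tumor 2). In both tumors 13 were lower (27.7% of all genes) and 5 higher (26.1% of all genes). Col18a1, the collagen from which endostatin is cut, was at 1163 and 964 CPM in the negative and at 1827 and 1493 in the positive classes (0.64 ± 0.10, adjusted p = 0.0742). Epas1, the hypoxia factor HIF-2 alpha, differed by 0.34 and Cdh6, a cadherin at low level, by 2.46. Besides Vtn, Emcn, a sialomucin of endothelium, differed by -0.74 (adjusted p = 0.225) and Pdgfrb, the platelet-derived growth factor receptor of pericytes, by -0.23 (adjusted p = 0.519). Notch3 was at 0.09 and Cspg4 at 0.07.

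The genes that chose the cells are given as a description. Rgs5, a regulator of G protein signalling, was at 12280 and 10677 CPM in the negative and at 12338 and 10791 in the positive classes. Kcnj8 and Abcc9, the pore and the sulphonylurea subunit of an ATP-sensitive potassium channel, were lower in positive cells by log2 differences of -0.74 and -0.47, and Rgs4 by -0.35. Among the 6 matrix genes, Serpinf1 was at 1.02, Olfml3 at 1.11, Lum at -0.34, Mfap5 at -0.46 and Smoc2 at -0.47, while Dcn was at 2.61 in tumor 1 and at -0.84 in tumor 2. The median V was 8.64 and 8.56 in positive against 9.17 and 9.57 in negative cells. At the edges of the rule, the lowest V of a vCAF-like cell was 4.32, the highest V under the minimum among cells with V over M was 3.38, and in 3 vCAF-like cells V exceeded M by less than 1.

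Fibroblast and CAF activation genes gave a mixed picture. Of 18 fibroblast genes, 9 were expressed enough to be tested, with a median of 1.00 that was 1.36 in tumor 1 and 0.67 in tumor 2. At an unadjusted p under 0.05, 4 were higher (4.77% of all genes) and none lower. The 4 were the matrix protein gene Fbln2 (1.70), the collagen crosslinking enzymes Lox (1.61) and Loxl1 (1.00), and Cd34 (5.18), which had reads in 9 negative and 13 positive cells. The same classes differed in M score, as given above. Of 15 CAF activation genes, Postn, periostin, differed by 0.37 and Inhba, an activin subunit, by 1.70, and Lrrc15 by -2.14 at the unadjusted threshold. Of all genes, 4.77% passed it upward and 3.63% downward. Fap, the fibroblast activation protein, was at 269 and 264 CPM in the negative and at 267 and 187 in the positive classes, a difference of -0.25 ± 0.16 (adjusted p = 0.758).

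**Figure D5:**
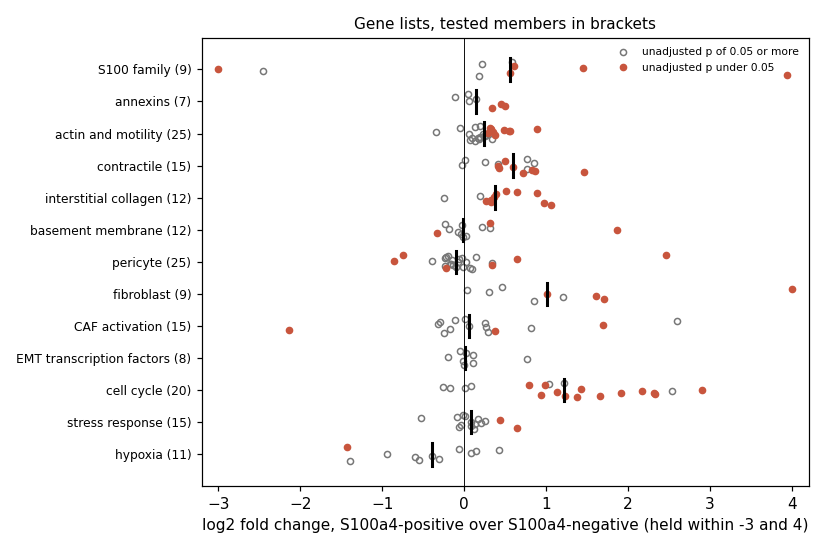
Log2 fold change (x axis, S100a4-positive over S100a4-negative, held within -3 and 4) of the tested members of 13 gene lists (y axis, number tested in brackets), with filled points for an unadjusted p under 0.05 and bars for the list's median. The contractile, interstitial collagen, fibroblast and cell cycle lists have medians of 0.59, 0.37, 1.00 and 1.22, and the EMT list one of 0.01.

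Lists for signalling and stress held 1 or 2 genes each past the unadjusted threshold, which 4.77% of all genes passed upward and 3.63% downward. Of 7 Wnt target genes, Ccnd1, cyclin D1, was higher at the unadjusted threshold (0.51), and the median was -0.08. Of 15 stress response genes, which often mark handling of tissue, Dusp1 (0.43) and Fosb (0.65) were higher, with a median of 0.08 that was 0.29 in tumor 1 and -0.14 in tumor 2. Of 9 chemokine and cytokine genes, Ccl7 was higher (1.65) and Cxcl10 lower (-4.99), the latter with 97.4 to 99.3% of the reads of the negative libraries in 1 cell. Of 11 hypoxia genes, Ndrg1 was lower (-1.44), and the median of -0.40 was -0.04 in tumor 1, -0.66 in tumor 2 and 0.10 in depth-matched cells.

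Markers of other cell types were summed in each library as a check of the cells. Epithelial markers summed to 45.9 and 184 CPM in the negative and to 20.2 and 106 in the positive libraries, with 3 and 1 of the 13 at 0 in the negative and 4 and 2 in the positive. Of 7 epithelial genes tested, Krt18 (-1.73) and the milk protein gene Csn3 (-1.13) were lower at the unadjusted threshold. Of all genes, 4.77% passed it upward and 3.63% downward. Immune markers summed to 3.85 and 19.1 against 4.11 and 6.65, with Ptprc at 0 in 3 of the 4 libraries. Endothelial markers summed to 701 and 653 against 615 and 616, with Pecam1 and Cdh5 at 0 throughout, and Vwf was lower (-2.08). The endothelial list as a whole averaged 0.98 and 0.95 log2(RPKM + 1) in vCAF-like cells of tumors 1 and 2 and 0.45 and 0.34 in the other cells. Adipocyte markers summed to 957 and 737 against 958 and 648, with Adipoq and Cfd at 0, and none of 3 tested was higher while Cd36 was lower (-0.86). That list averaged 2.10 and 1.69 in vCAF-like cells and 1.10 and 0.83 in the other cells. Markers of developmental CAFs summed to 311 and 469 against 348 and 321, with Trf (-1.34) and Cp (-0.60) lower and Mrgprf (1.18) higher. At least 3 of these markers had reads in 23 of 151 and 53 of 144 negative and in 16 of 90 and 30 of 75 positive cells. The part of such cells in the differences was not tested.

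Calls were sensitive to which cells were summed, and the sizes of the differences moved as well. In depth-matched cells 1 gene was higher and 1 lower, and in cells with an M below 2 there were 0 of each, with 475 and 349 at an unadjusted p under 0.05. Under 17 alternatives the log2 difference of Crispld2 ranged from 1.94 to 2.69, that of Col1a1 from 0.81 to 1.46, that of Acta2 was 0.67 in depth-matched cells and 0.80 with an M below 2, and that of Steap4 ranged from -1.75 to -0.98. The ranges were 1.27 to 3.72 for Ccna2, 1.63 to 3.60 for Ccnb2, 2.05 to 3.57 for Olfr78 and -9.75 to -4.29 for Zmat4. None of these 7 genes with a range changed direction. When the ERCC totals set the library size, the median over all genes moved from -0.01 to 0.39, and 701 genes were higher and 19 lower in place of 10 and 3.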

How the data were processed

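Single cells of 2 tumors were measured by Smart-seq2. The authors deposited read counts per gene, not normalized, made with STAR on mm10 and RefSeq genes, and RPKM values that the authors computed from them relative to gene length and to the reads in each well. The rows are 24490 endogenous genes and 92 ERCC spike-ins, and 0 columns were left unused. Wells were grouped by the plate in their labels. The RPKM values served for the scores, the filter, levels per cell and the marker check, and all tests used the counts.

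Member cells and gene lists were chosen with earlier results of these data known. Counts were summed per tumor and class (4 libraries), 11214 genes whose RPKM averaged 1 or more over the compared cells were kept, and edgeR 4.0.16 in R 4.3.3 (TMM, glmQLFit, glmQLFTest, two-sided) was run with the tumor as a block, with Benjamini-Hochberg adjustment at 0.05. The 13 genes of the rule were left out of call counts. Lists got no test. The tumor pairs the libraries, since both classes come from the same animal, and deviations of a tumor's libraries from the class means correlated at 0.18. DESeq2 1.42.0, other scalings, filters and cell choices were alternatives. Shares of cells were also taken, and classes redrawn, after thinning cells to 50000 reads. No doublet caller was run on the sorted single cells. On counts simulated for this comparison over 11214 genes, the test called 3 of 100 genes changed by 1 on the log2 scale, 49 of 100 changed by 2 and 0 of 11014 unchanged genes. The simulation gave every gene the same dispersion and changed only genes above a minimum level. Its shares need not hold for genes with another spread, such as those led by single cells. Smart-seq2 has no molecular identifiers, so intervals (exact, 95%) and floors (3 counts) cover counting error only. Cells per tumor are not independent samples. With the tumor as a block, p-values rest on how far the class difference varied between 2 tumors, each of 1 plate. The spread of each gene was drawn toward that of all genes.

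The named genes are the 12 of smallest p in each direction that differed the same way in both tumors, together with any member of the 21 lists. The RefSeq symbols of the tables were matched to GRCm38 for positions. The log2(RPKM + 1) scale uses a pseudocount of 1.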

Additional observations from a re-analysis of the deposited data

How the results depend on the processing

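Counts of called genes, 10 higher and 3 lower, moved with most alternatives. The higher and lower counts were 140 and 50 with DESeq2, 32 and 10 in edgeR with DESeq2 size factors, 701 and 19 with ERCC totals as the library size, 23 and 7 with no filter on genes, 73 and 23 with each cell scaled to the same total, and 21 and 6 with positive cells taken from 1 read. They were 1 and 1 in depth-matched cells and also with a V of at least 6, and 0 and 0 with an M below 2, with an adjusted p of 0.001, and in depth-matched cells without cycling cells, an alternative chosen after seeing the data. The number higher was 4 with classes from thinned reads, 0 in cells with at least 100000 reads, where 2 were lower, and 3 without cells with Epcam, Ptprc or Pecam1 reads. Counts stayed within 1.5 times for filterByExpr, for positive cells from 20 reads (7 and 2) and without cycling cells (12 and 3). The fit with no replicate block, which leaves out the pairing by tumor, gave 0 and 0. The cause of these moves was not tested. With 1 tumor left out, 2 libraries remain and there is no test. Among the tested values of the named genes, the stricter threshold included, 264 kept direction and side of the threshold, 108 lost and 49 gained a call, and 1 turned, Emb at 0.26 with positive cells from 1 read. With 4 libraries, log2 differences of 1 were seldom callable in a simulation that gave every gene the same dispersion (3 of 100). That share need not hold for genes with a smaller or larger spread.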

Other observations

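The 36 vCAF-like cells with 1 to 4 S100a4 reads entered neither class of the comparison as reported. They were counted as positive in the alternative that took positive cells from 1 read, and those deep enough fell into either class where classes were drawn from thinned reads. Their summed levels of the 24 named genes were nearer to those of the S100a4-negative than of the S100a4-positive class in 32 of 48 pairs of gene and tumor. The genes were picked for a difference between these classes, and no such share was taken for other genes. Sparse genes such as Gja5 and Rsad2 were at 0 in the cells with 1 to 4 reads, which alone placed them. Col1a1 was at 1408 and 675 CPM in these cells of tumors 1 and 2, beside 1641 and 1458 in negative and 3077 and 3171 in positive cells under the same scaling. Crispld2, at 162 and 161, was near the positive cells (178 and 160) and Steap4, at 1960 and 1123, near the negative ones (1634 and 922). These libraries held 20 and 16 cells, with median depths of 165414 and 124068 reads, below those of both classes.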
